A study of Mus musculus with 6 samples.

Results

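The nuclear genes of oxidative phosphorylation were described in the dorsal root ganglia of the mouse embryo. The members were the protein-coding genes whose GENCODE M21 symbols begin with Nduf, Sdh, Uqcr, Cox4 to Cox8 or Atp5, or equal Cyc1, in the patterns that name subunits of the 5 complexes. The pattern took 86 gene entries of the 37086 genes with a transcript in the deposited files. They carry 85 symbols, since Atp5o has a second, overlapping entry. The entries fell into complex I (35), complex II (4), complex III (9), complex IV (20) and complex V (18). Ndufa4 and Ndufa4l2 were placed with complex IV, where the Ndufa4 protein is now assigned. In all, 83 entries passed the filter on low counts. The other 3, Cox7b2, Cox8b and Cox8c, had too few tags to be tested.

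The study made 6 RNA sequencing libraries from ganglia of wild-type C57BL/6J embryos at embryonic day 14.5, sex unknown, with the ganglia of 18 embryos combined into 1 RNA pool. High-volume libraries took the RNA in 9 µl with the HV version of the SMARTer Ultra Low Input kit. Low-volume libraries took it in 1 µl with the SMARTer Ultra Low RNA kit, so the volume and the kit cannot be told apart. Each volume was run once at 3, 10 and 30 ng of RNA. Since all 6 libraries repeat the same RNA, the errors and p-values given here describe technical spread only and carry no information on differences between embryos. Depth ran from 14160401 to 31524211 tags (counted reads) in the transcripts chosen to stand for genes. The 3 ng libraries correlated less with the rest (median r across genes 0.900 and 0.897) than the others did (0.974 to 0.980). Markers of sensory neurons were high in all libraries (8 of 8 at 10 RPKM or more, Sncg 4956 and Tubb3 2961). Ganglion glia markers were present too (5 of 5 at 10 RPKM or more, Fabp7 869), as were those of red blood cells (Hbb-y 3034). In bulk tissue, fewer cells of a type and less RNA per cell cannot be told apart.

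As background, oxidative phosphorylation makes most of the ATP of a resting cell. Complexes I and II pass electrons to ubiquinone, complex III passes them on to cytochrome c, and complex IV, cytochrome c oxidase, hands them to oxygen. The protons pumped on the way drive complex V, the ATP synthase, and complexes I, III, IV and V each mix subunits from nuclear and mitochondrial genes. Several complex IV subunits exist as paralogs, one made in most tissues and another made mainly in heart and muscle, in testis or under low oxygen. The 3 genes of the ATP synthase c ring differ in the import sequence and encode the same mature peptide.

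The c ring genes show how far reads of paralogs can be told apart. The last 228 coding bases of each gene, stop codon included, are printed 5′ to 3′ from the GENCODE M21 transcripts, with capitals at the 58 positions where the 3 genes are not all the same.
Atp5g1: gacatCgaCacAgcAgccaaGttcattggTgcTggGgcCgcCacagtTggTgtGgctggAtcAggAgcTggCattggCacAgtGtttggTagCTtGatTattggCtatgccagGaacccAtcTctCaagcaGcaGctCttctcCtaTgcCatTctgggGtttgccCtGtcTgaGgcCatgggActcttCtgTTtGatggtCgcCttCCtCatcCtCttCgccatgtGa
Atp5g2: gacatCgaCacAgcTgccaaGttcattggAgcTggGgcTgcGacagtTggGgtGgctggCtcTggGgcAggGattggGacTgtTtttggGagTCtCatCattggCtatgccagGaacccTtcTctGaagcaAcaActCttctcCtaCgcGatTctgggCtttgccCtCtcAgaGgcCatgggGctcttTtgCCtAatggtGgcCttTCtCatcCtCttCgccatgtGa
Atp5g3: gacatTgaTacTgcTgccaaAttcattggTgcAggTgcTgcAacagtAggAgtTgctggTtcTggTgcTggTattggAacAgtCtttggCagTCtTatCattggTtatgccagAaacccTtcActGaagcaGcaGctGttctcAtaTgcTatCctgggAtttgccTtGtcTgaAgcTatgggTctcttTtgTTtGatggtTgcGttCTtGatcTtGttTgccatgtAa
The other 170 positions are shared by all 3. Atp5g1 and Atp5g2 were identical at 85.1% of bases, Atp5g1 and Atp5g3 at 79.8%, and Atp5g2 and Atp5g3 at 78.5%. The longest stretch without a difference was 21 bases, between Atp5g1 and Atp5g2. Near-identical copies elsewhere in the genome are a separate matter. In 18 members the coding sequence has a copy, mostly a processed pseudogene, that is at least 95% identical over at least 90% of its length. Of these 34 copies, 30 have a row in the files and 6 reach 1 RPKM, the highest being Gm10231, a copy of Atp5g2, at 11.2 RPKM. Values of those 18 members are uncertain where reads could be split between gene and copy. The genes are Atp5f1, Atp5g1, Atp5g2, Atp5h, Atp5k, Atp5l, Atp5o, Cox6c, Cox7a2l, Cox7b, Cox7c, Ndufb11, Ndufb4, Ndufs3, Ndufs5, Ndufs6, Uqcr11 and Uqcrb.

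Promoter windows from RefSeq (GRCm38.p6, 250 bases before and 50 after each gene's start) matched 66 of the 85 symbols, in 71 windows. The printed windows are the 250 upstream bases of paralogs that differed in level, and of Cox6a1, the most abundant member with an NRF1 match in its 250 upstream bases. They run 5′ to 3′ on the gene's strand, with capitals at matches of any motif searched. The windows are Cox7a2 (chr9:79759854-79760103, minus strand), Cox7a1 (chr7:30183921-30184170, plus), Cox8a (chr19:7217617-7217866, minus), Cox8b (chr7:140900447-140900696, minus) and Cox6a1 (chr5:115348959-115349208, minus).
Cox7a2: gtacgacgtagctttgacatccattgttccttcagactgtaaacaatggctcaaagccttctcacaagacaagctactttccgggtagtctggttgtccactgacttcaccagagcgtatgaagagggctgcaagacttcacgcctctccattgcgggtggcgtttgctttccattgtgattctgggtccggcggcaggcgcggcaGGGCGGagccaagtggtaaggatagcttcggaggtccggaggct
Cox7a1: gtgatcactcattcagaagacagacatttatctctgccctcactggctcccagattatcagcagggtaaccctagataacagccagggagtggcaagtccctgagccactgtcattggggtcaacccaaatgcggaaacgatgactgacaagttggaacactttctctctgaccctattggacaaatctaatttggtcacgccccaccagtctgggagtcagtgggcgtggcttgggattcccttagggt
Cox8a: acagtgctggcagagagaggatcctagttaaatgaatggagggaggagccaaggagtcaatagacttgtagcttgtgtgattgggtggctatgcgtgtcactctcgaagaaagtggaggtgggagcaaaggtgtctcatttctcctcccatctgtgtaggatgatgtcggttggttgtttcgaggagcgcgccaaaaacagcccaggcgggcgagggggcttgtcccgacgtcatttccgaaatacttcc
Cox8b: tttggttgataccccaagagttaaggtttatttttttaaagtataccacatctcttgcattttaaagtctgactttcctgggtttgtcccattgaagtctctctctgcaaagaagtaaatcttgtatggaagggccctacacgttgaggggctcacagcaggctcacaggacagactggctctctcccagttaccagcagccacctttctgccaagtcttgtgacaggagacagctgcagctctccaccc
Cox6a1: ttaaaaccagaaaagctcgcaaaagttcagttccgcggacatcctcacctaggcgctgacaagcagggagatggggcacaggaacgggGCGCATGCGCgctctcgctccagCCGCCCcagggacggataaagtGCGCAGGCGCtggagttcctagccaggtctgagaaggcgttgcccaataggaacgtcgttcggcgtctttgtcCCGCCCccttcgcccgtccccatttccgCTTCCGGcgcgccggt
The upstream window of Cox7a2 holds 14 CpG dinucleotides and that of Cox7a1 holds 4. Cox8a has 11 and Cox8b has 1. Not every pair has this order. In the full windows of 300 bases, Cox7b (282 RPKM) has 5 CpG and Cox7b2 (0.295 RPKM) has 10, while Cox6b1 has 17 and Cox6b2 has 10. The 5 matches in the Cox6a1 window are of the NRF1, ETS and SP1 motifs. Over the full windows, the NRF1 motif (GCGCA, then any base, then GCGC) stood in 25.4% of the 71 member windows, in 6.38% of 21263 windows of protein-coding genes and in 4.60% of all 32851 windows. The YY1 motif AAGATGGC stood in 12.7%, 3.05% and 2.75% of the same sets. The ETS motif CCGGAAG, bound by GABP among others, stood in 22.5%, 11.6% and 8.86%. The ERR motif TCAAGGTCA stood in only 2 member windows (2.82%), against 0.334% of protein-coding windows and 0.423% of all. The SP1 motif GGGCGG did not follow this order, with 38.0% of member windows against 46.2% of protein-coding windows. Both strands were searched, and of the 44 SP1 and 19 ETS matches in member windows 1 each shared bases with another motif. At least one of the NRF1, ETS and YY1 motifs stood in 36 of the 66 member genes. The median CpG count was 19 in member windows, 13 in protein-coding windows and 7 in all windows, so base composition differs between the sets too. The 4 matched members under 20 RPKM (Cox8b, Cox7a1, Cox6b2 and Cox7b2) had 2 to 10 CpG per 300-base window, and the 62 other genes had 5 to 43 (median 19). A match describes letters in a window and shows no binding.

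The members were among the most abundant transcripts of the ganglia. Levels are the authors' RPKM (tags scaled to transcript length in kilobases and to library size), averaged over the 6 libraries. The median member stood at 344.5 RPKM, against 6.34 RPKM for the 11356 protein-coding genes at 1 RPKM or more. Of the 86 entries, 73 lay at or above 64.9 RPKM, the 90th percentile of those genes. There were 71 at 100 RPKM or more, 10 at 1000 or more and 9 under 20. The entries together held 3.57% ± 0.170 (SD, n = 6) of all tags in chosen transcripts, within a range of 3.37% to 3.75%. The 13 protein genes encoded in mitochondrial DNA held 7.55% ± 1.10 (SD, n = 6) of the tags. That share varied more, from 6.35% to 9.49%, and the ratio of nuclear to mitochondrial tags ran from 0.355 to 0.591.

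**Figure D1:**
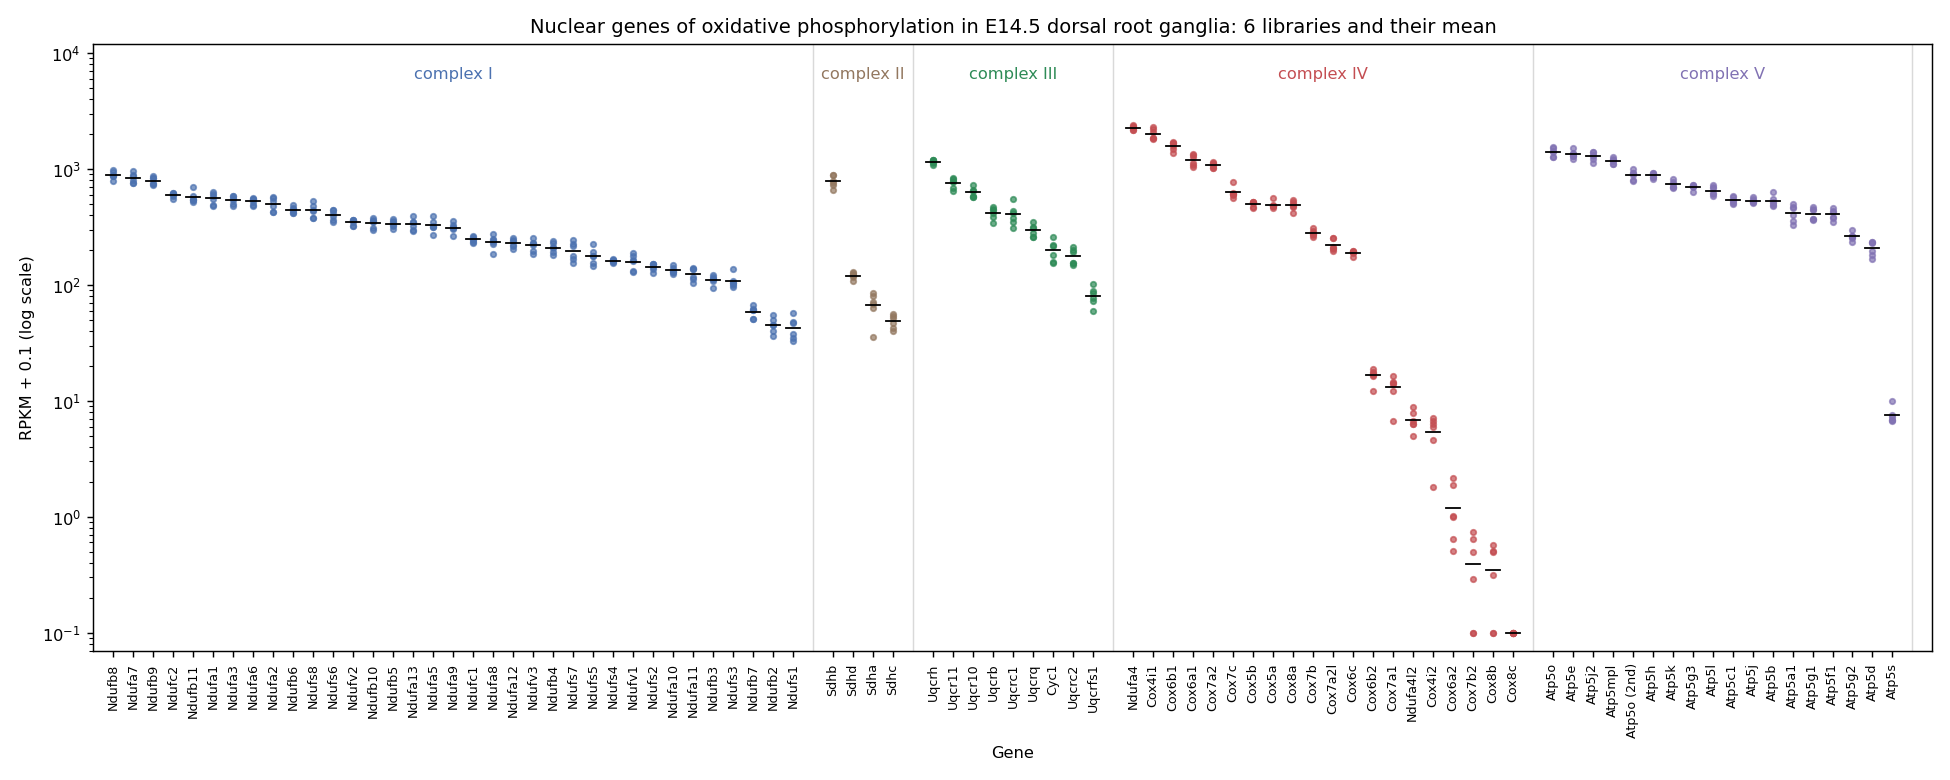
RPKM plus 0.1 (log scale) of the 86 gene entries, ordered by mean within each complex; points are the 6 libraries and bars their means. Most members lie between 100 and 2281 RPKM with the 6 libraries close together, while 8 genes of complex IV and Atp5s lie under 20 RPKM.

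Complex I, NADH dehydrogenase, had a median of 312 RPKM over its 35 genes. Its highest member was Ndufb8 (chr19:44548572-44555440), an accessory subunit of the membrane arm. Ndufb8 read 863, 786 and 948 RPKM in the high-volume libraries at 3, 10 and 30 ng, and 891, 865 and 984 RPKM in the low-volume ones. The lowest was Ndufs1, the largest core subunit of the electron-carrying arm, at 42.8 ± 9.43 RPKM (SD, n = 6). The 7 core subunits, which carry the flavin and iron-sulphur centres, had a median of 159 RPKM and ranged from 42.8 to 440 RPKM. The 28 accessory subunits had a median of 331 RPKM. The groups overlapped, since accessory members ran from 45.2 to 890 RPKM. The core transcripts were also longer, with a median of 1540 bases against 868.

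Complex II, succinate dehydrogenase, had the fewest genes and the lowest median, 93.8 RPKM. Sdhb (chr4:140961203-140979193), the iron-sulphur subunit, read 723, 665 and 761 RPKM in the high-volume libraries at 3, 10 and 30 ng and 889, 791 and 882 RPKM in the low-volume ones. The other 3 genes lay far below it. Sdhd, a membrane anchor, stood at 120 ± 7.37 RPKM, the flavoprotein gene Sdha at 67.2 ± 17.5 RPKM and the second anchor gene Sdhc at 48.5 ± 6.60 RPKM (SD, n = 6 each). Sdha had the largest coefficient of variation of the 77 members at 20 RPKM or more, 26.0%. Its high-volume 3 ng library read 35.6 RPKM, below all other libraries, which read 63.2 to 85.8 RPKM.

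Complex III, which takes electrons from ubiquinol to cytochrome c, had a median of 406 RPKM. Uqcrh (chr4:116066965-116075071), the hinge subunit, was its highest gene at 1161 ± 52.7 RPKM (SD, n = 6). The 6 libraries lay between 1082 and 1208 RPKM. Of the catalytic subunits, Cyc1 (cytochrome c1) stood at 199 ± 41.3 RPKM and Uqcrfs1 (the Rieske iron-sulphur protein) at 80.4 ± 14.5 RPKM. Uqcrc1 and Uqcrc2, the core proteins, stood at 406 ± 84.2 and 177 ± 27.5 RPKM.

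Complex IV held both the highest and the lowest members. Ndufa4 (chr6:11900292-11907497) read 2242, 2324 and 2361 RPKM in the high-volume libraries at 3, 10 and 30 ng and 2189, 2172 and 2395 RPKM in the low-volume ones. Cox4i1 (2019 RPKM), Cox6b1 (1581), Cox6a1 (1199) and Cox7a2 (1081) followed. The median of the 20 genes was 252 RPKM, but 8 of them stood under 20 RPKM. Among the 17 genes at 1 RPKM or more the median was 488 RPKM.

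Complex V had the highest median, 595 RPKM. Atp5o (chr16:91925214-91931687), the stalk subunit known as OSCP, read 1279, 1281 and 1434 RPKM in the high-volume libraries at 3, 10 and 30 ng and 1556, 1412 and 1525 RPKM in the low-volume ones. Of its exonic bases 48.6% are shared with other annotated genes, and all those of the second Atp5o entry (889 RPKM) are, so the same tags enter both. By role, the 5 genes of the catalytic F1 head had a median of 532 RPKM and the 4 of the peripheral stalk 707 RPKM. The 3 c ring genes had a median of 412 RPKM and 4 small membrane subunits 959 RPKM. Atp5s, coupling factor B and no subunit of the enzyme, stood apart at 7.41 ± 1.25 RPKM (SD, n = 6).

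These levels depend on which transcript stands for a gene, because the deposited counts give a shared tag to every transcript that contains it. The transcript with the most tags was not annotated as protein coding for 11 entries, and is often a longer form with a retained intron. Taking the coding transcript of highest RPKM instead raised 7 members at least 2-fold. Cox6c went from 190 to 1148 RPKM, Ndufb2 from 45.2 to 430, Ndufb7 from 58.7 to 416 and Uqcrq from 296 to 1008. Ndufa3 went from 542 to 1202 RPKM, Ndufv3 from 219 to 621 and Sdhc from 48.5 to 139. Under this choice Cox4i1 (2657 RPKM) stood above Ndufa4 (2281 RPKM), and the complex medians became 416 (I), 130 (II), 418 (III), 385 (IV) and 681 RPKM (V). Complex II stayed lowest and complex V highest. The choice was added after the values were seen.

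**Figure D2:**
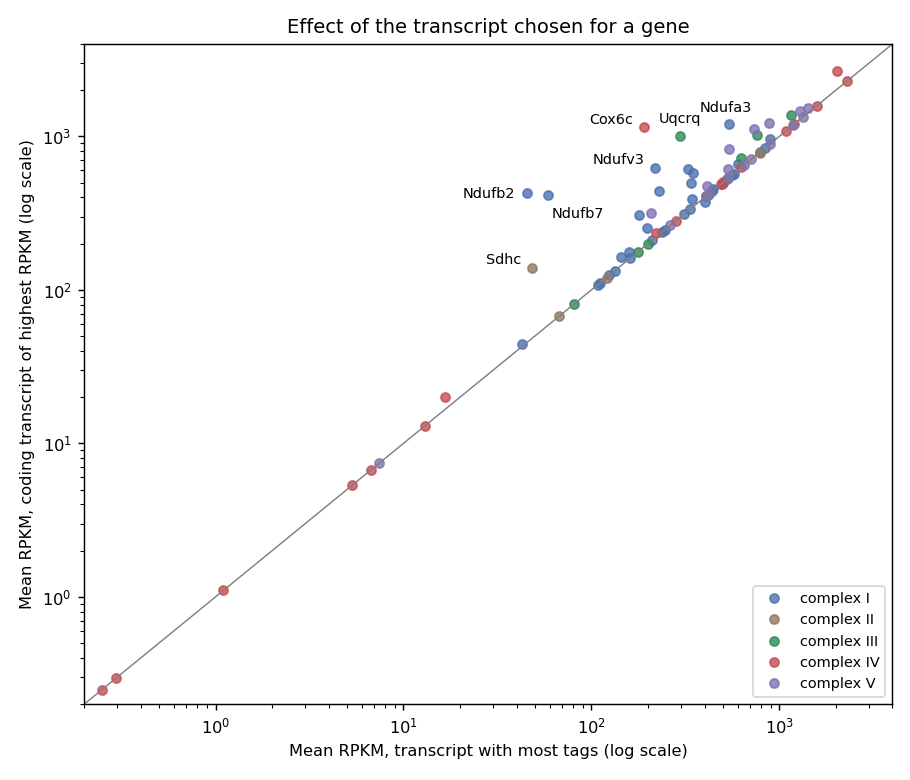
Mean RPKM over the 6 libraries of each member with the transcript of most tags (x axis) and with the coding transcript of highest RPKM (y axis), both on log scales, with the line of equality. The 7 named genes, from Sdhc (48.5 against 139) to Ndufa3 (542 against 1202), lie at least 2-fold above the line.

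The spread between libraries was narrow for most members. The median coefficient of variation was 9.73% over the 77 members at 20 RPKM or more and 14.3% over all 2911 such genes, which were not matched to the members in level. Ndufs4 varied least, at 3.13%, with 154 to 169 RPKM in the 6 libraries. Tags in introns were few. In the members at 20 RPKM or more the median intron density was 0.0809% of the exon density, read on the coding transcript of highest RPKM. Over 2756 protein-coding genes at 20 RPKM or more it was 0.236%, but read on the transcript with the most tags. The transcripts were chosen differently, so these values cannot be compared directly. The members lie on 19 chromosomes, 3 of them on X (Ndufb11, Ndufa1 and Cox7b). Exonic bases are shared with another gene in 24 entries and reach 10% or more in 16, where tags cannot be told apart; these include Cox4i1 (20.1%, with Emc8) and Cox6a2 (10.5%, with Itgad). Tested members were shorter than tested genes at large, with median transcripts of 838 and 2820 bases, and had a median GC content of 52.1% against 50.1%.

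In each of the 9 complex IV pairs, a paralog of broad use was the higher one. In the pair of Cox7a2 and Cox7a2l, the lower gene was no minor form (222 RPKM). The 12 pairs were compared within libraries as differences of log2(RPKM + 1), a scale that understates differences for low genes. Each gave a two-sided exact sign-flip permutation p of 0.03125, the smallest that 6 libraries allow (0.03125 after adjustment over the 12 pairs), with 6 of 6 libraries in the same direction. With a pseudocount of 0.1 in place of 1, differences against the lowest genes were larger: 10.15 for Cox6a1 over Cox6a2, 9.89 for Cox7b over Cox7b2, 10.8 for Cox8a over Cox8b and 12.2 for Cox8a over Cox8c. Pairs were set up with earlier results of these data known, so the sizes matter more than the p.

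Among the heart and muscle forms, Cox8b was lowest, Cox6a2 stood near 1 RPKM and Cox7a1 was the highest. Cox6a2, with 105 tags in all, read 2.06, 0.411 and 0.916 RPKM in the high-volume libraries at 3, 10 and 30 ng and 0.539, 1.78 and 0.896 RPKM in the low-volume ones. Its partner Cox6a1 lay between 1045 and 1343 RPKM, a log2 difference of 9.21 ± 0.46 (SD, n = 6). Cox8b had 16 tags in all 6 libraries together (0.248 RPKM), against 488 RPKM for Cox8a, a log2 difference of 8.63 ± 0.33. Cox7a1 read 6.57, 16.3 and 14.2 RPKM in the high-volume libraries and 12.2, 14.0 and 14.6 RPKM in the low-volume ones, lowest at 3 ng in both volumes. With 739 tags it lay 6.32 ± 0.41 log2 units below Cox7a2 (1081 RPKM). Of 8 skeletal muscle markers 2 reached 10 RPKM (Mylpf 22.0 and Acta1 10.1), 3 were under 1, and Myod1 was at 0.0848. Their summed level was 41.0 to 46.1 RPKM in the high-volume and 39.9 to 41.3 RPKM in the low-volume libraries. Of 6 heart markers 4 were under 1 RPKM and the highest was Myl4 (7.14), while Myh6 stood at 0.0447. The heart markers summed to 7.94 to 9.52 RPKM at high volume and 6.62 to 14.2 at low volume. The brown fat marker Ucp1 stood at 0.007 RPKM, Plin1 and Adipoq had no tag, and the 4 markers summed to at most 2.28 RPKM. The part of muscle cells in the Cox7a1 and Cox6a2 values was not tested.

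The paralogs linked to low oxygen, Cox4i2 and Ndufa4l2, were low but measurable. Cox4i2 read 7.02, 4.47 and 6.64 RPKM in the high-volume libraries at 3, 10 and 30 ng and 1.71, 5.87 and 6.24 RPKM in the low-volume ones. The low-volume 3 ng library stood below the other 5. Cox4i1 exceeded Cox4i2 by 8.40 ± 0.67 on the log2 scale (SD, n = 6). Ndufa4l2 lay between 4.88 and 8.74 RPKM, and Ndufa4 exceeded it by 8.22 ± 0.30. Both genes are known from pericytes, the cells that wrap capillaries. Of 6 pericyte markers none reached 10 RPKM and 3 were under 1, with Rgs5 at 5.31, Pdgfrb at 3.79 and Kcnj8 at 3.34 RPKM. They summed to 10.9 to 15.5 RPKM in the high-volume and 12.3 to 18.0 RPKM in the low-volume libraries. The part of pericytes in these levels was not tested.

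The testis forms differed among themselves. Cox6b2 was the most abundant minor paralog, at 17.4, 18.9 and 16.7 RPKM in the high-volume libraries at 3, 10 and 30 ng and 12.1, 17.6 and 16.4 RPKM in the low-volume ones. Cox6b1 exceeded it by 6.50 ± 0.29 on the log2 scale (SD, n = 6). The intron density of Cox6b2 was 7.72% of its exon density, read on the coding transcript of highest RPKM. The median of members at 20 RPKM or more was 0.0809%. Cox7b2 had 28 tags in all (0.295 RPKM) and lay 7.79 ± 0.26 below Cox7b (282 RPKM). Cox8c had no tag in any library. With a floor of 3 tags over the 6 libraries, 0.0422 RPKM, Cox8a was at least 11574-fold higher than Cox8c. All 6 male germ cell markers stood under 0.1 RPKM (Ldhc, Pgk2, Tnp1, Prm1, Prm2 and Dazl), with a sum of at most 0.324 RPKM in any library. Cyct, the testis cytochrome c, had 1 tag.

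Cox7a2l, a relative of Cox7a2 linked to supercomplexes of complexes III and IV, was no minor form. It lay between 194 and 256 RPKM, 2.29 ± 0.19 log2 units below Cox7a2 (SD, n = 6). These RNA levels do not show whether its protein has that function in this strain. The c ring genes were all abundant. Atp5g3 read 725, 709 and 735 RPKM in the high-volume libraries at 3, 10 and 30 ng and 709, 639 and 699 RPKM in the low-volume ones. Atp5g1 averaged 412 RPKM and Atp5g2 263 RPKM. Atp5g3 exceeded Atp5g1 by 0.78 ± 0.15 and Atp5g2 by 1.41 ± 0.06 on the log2 scale, and Atp5g1 exceeded Atp5g2 by 0.64 ± 0.13 (SD, n = 6 each). With the longest transcript of each gene these differences became 2.64, 0.51 and -2.12, so their sizes, and the order of Atp5g1 and Atp5g2, depend on the transcript.

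**Figure D3:**
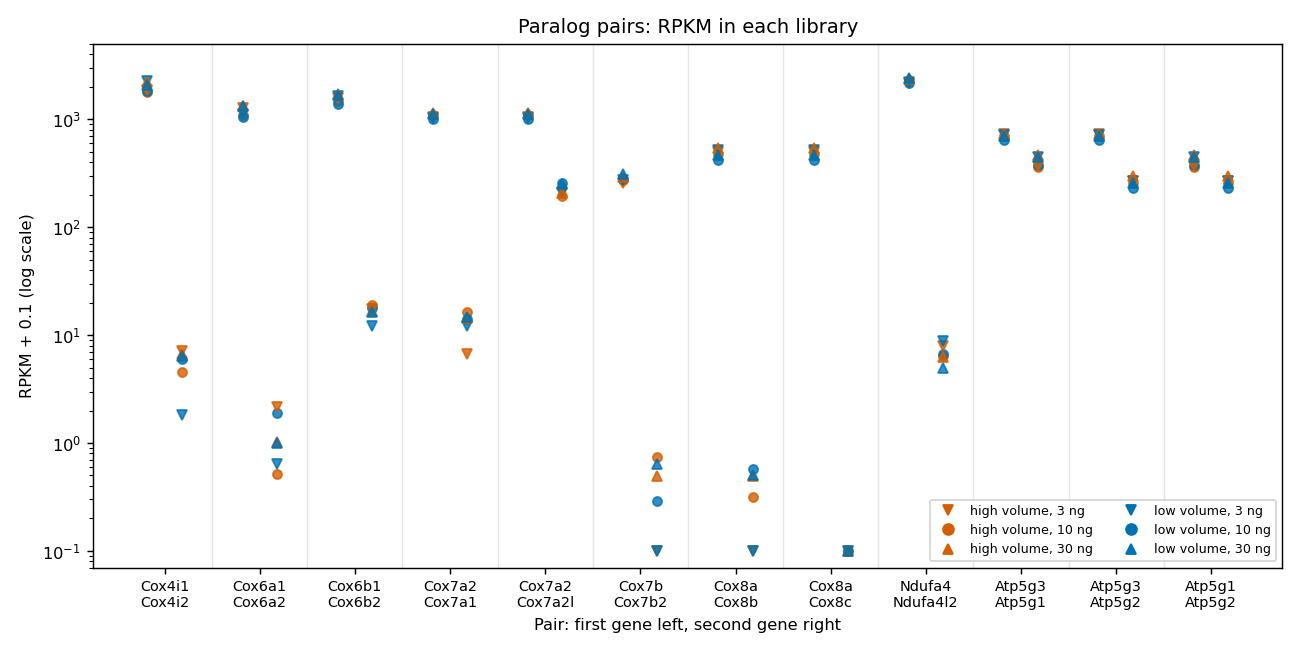
RPKM plus 0.1 (log scale) of both genes of the 12 paralog pairs in each of the 6 libraries; colour marks the volume and symbol shape the input. The first gene lies above the second in all 6 libraries of each pair, by 9.21 log2 units for Cox6a1 over Cox6a2 and by 0.64 for Atp5g1 over Atp5g2, on the log2(RPKM + 1) scale.

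Known alternative exons were read from the exon rows. Exon 3 of Ndufv3 (chr17:31527310-31528401, 1092 bases) is part of the mRNA for the long form of this complex I subunit. It stood at 41.4 ± 6.59 RPKM, while exons 2 and 4 stood at 979 and 675 RPKM. That is 6.11% ± 0.629 (SD, n = 6) of the median of the other exons, with 5.15% to 7.06% in single libraries. The other exons are far shorter (147, 124 and 212 bases). Exon RPKM may move with exon length, as in Atp5c1 below, so the ratio does not measure inclusion. The length of exon 3 enters the RPKM of the chosen Ndufv3 transcript, whose level rose from 219 to 621 RPKM with the coding transcript named above. Exon 9 of Atp5c1 (chr2:10056770-10056806, 37 bases), known to be skipped in the ATP synthase gamma subunit of heart and skeletal muscle, carried tags in all 6 libraries. It stood at 1570 ± 126 RPKM, 181% ± 15.2 (SD, n = 6) of the median of the other exons. Other short exons of the gene were also above the longer ones, with 1212 RPKM for exon 2 (35 bases) and 1301 for exon 6 (65 bases), so a value over 100% does not measure inclusion.

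**Figure D4:**
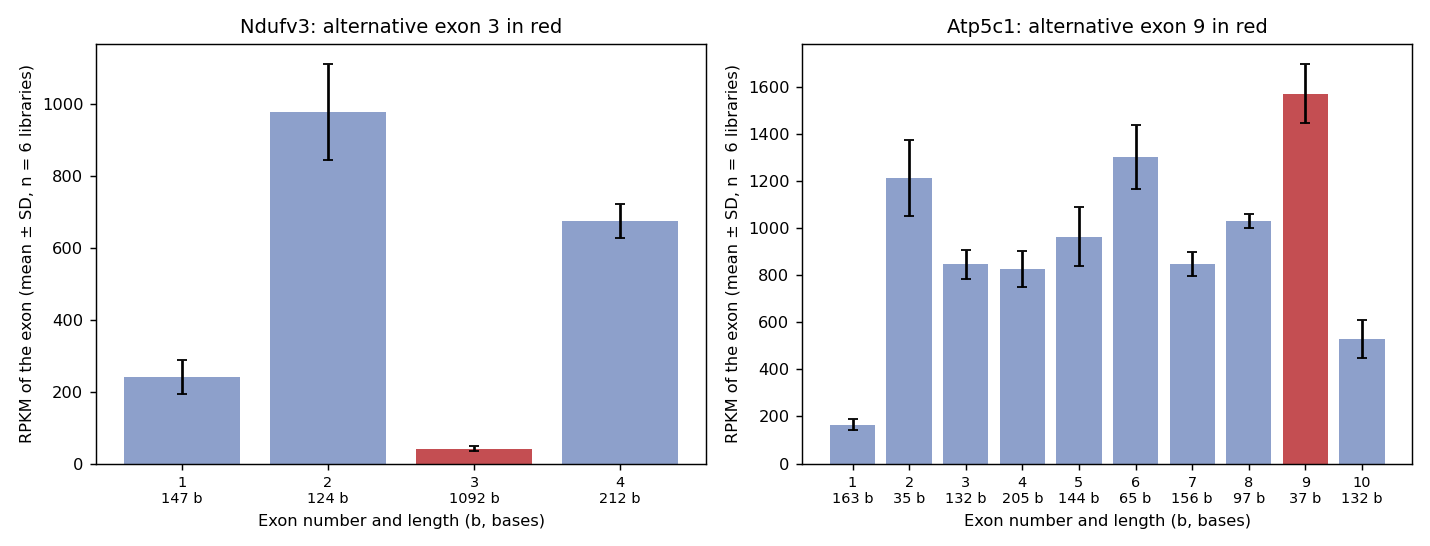
RPKM of each exon of Ndufv3 and Atp5c1 (mean and SD over 6 libraries), with exon number and length on the x axis and the alternative exon in red. Exon 3 of Ndufv3 reaches 41.4 RPKM beside 979 and 675 for its neighbours, and exon 9 of Atp5c1 reaches 1570 RPKM.

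The design then asks which transcripts were counted differently in the 2 volumes. No member passed the threshold. In edgeR's quasi-likelihood test over 16120 genes, 1 gene (0.0062%) had an adjusted p under 0.05, and 0 of 83 members did. With the input amount as a block, edgeR called 0 genes (0%) and 0 members, with unadjusted p under 0.05 for 27 members and 7.2% of genes. The lowest adjusted p of a member was 0.661, for Ndufs5. Unadjusted p under 0.05 held for 16 members (19.3%), 12 higher and 4 lower at high volume, against 6.67% of all genes. DESeq2 called 179 genes (1.11%) and 0 members (lowest adjusted p 0.0501). Differences are log2 of high over low volume on counts after TMM scaling. The median was 0.07 over the members and 0.02 over all genes. With TMM 59 of 83 members were above 0, against 51.9% of all genes. With total-count scaling only 30 members were, against 40.0% of all genes. The medians were then -0.05 for members and -0.10 for all genes, a shift that all genes shared. The members' median lay 0.05 above that of all genes under both scalings. This is no separate support, since a change of scaling moves all genes nearly alike. The direction of the members with edgeR unadjusted p under 0.05 also depended on scaling. With total-count scaling there were 9 (10.8%), 1 higher and 8 lower, and 1436 of 16120 genes. With an offset for GC content there were 11 (13.3%), 5 higher and 6 lower, and 1132 of 16120 genes. Summed RPKM of several cell type markers, which is not TMM-scaled, also separated the volumes. The 4 red blood cell markers summed to 4318 to 4539 at high and 3664 to 4072 at low volume, the 5 glia markers to 925 to 994 and 1032 to 1069, and the 4 fibroblast markers to 219 to 237 and 239 to 256. The 8 neuron markers summed to 8786 to 10374 at high and 10308 to 12126 at low volume, which overlap. After TMM scaling, the median log2 difference of the single markers was 0.321 for red blood cells and 0.019 for glia. It was 0.008 for fibroblasts and -0.004 for neurons. Lower levels of glia and fibroblast markers at high volume were not seen in these medians. The edgeR fit called 0 of these markers, with unadjusted p under 0.05 for 2 red blood cell, 3 glia, 1 fibroblast and 2 neuron markers, and DESeq2 called Hbb-y, Hbb-bs and the neuron marker Prph. Both volumes drew on the same RNA pool, so the cells behind the RNA were the same and these marker differences are technical. The part of these cells in the members' levels was not tested.

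At the level of single genes the differences were small. Ndufs5, a complex I accessory subunit of the intermembrane space, had 157, 120 and 130 TMM-scaled CPM (counts scaled to library size) in the high-volume libraries at 3, 10 and 30 ng. The low-volume libraries had 109, 89.96 and 97.4. The groups did not overlap, and high volume exceeded low by 0.45 ± 0.13 log2 units (SE), with an edgeR adjusted p of 0.661. Cyc1 had 220, 208 and 247 CPM at high volume and 318, 266 and 275 at low volume. Again the groups did not overlap, in the other direction, with a log2 difference of -0.35 ± 0.12 (edgeR adjusted p = 0.691). Sdha had 120, 207 and 226 CPM at high volume and 209, 256 and 241 at low volume, and its groups overlapped. Its difference of -0.39 ± 0.16 (edgeR adjusted p = 0.745) was -0.80 within the 3 ng pair, -0.30 within the 10 ng pair and -0.10 within the 30 ng pair. Without the 3 ng pair it was -0.20 ± 0.09 (edgeR adjusted p = 0.294). Cox6b2 differed by 0.36 ± 0.29 (edgeR adjusted p = 0.805), by 0.15 without the low-volume 3 ng library and by 0.20 without the 3 ng pair. The highest members of each complex lay near 0 or slightly off it: Ndufb8 0.07 ± 0.10, Sdhb -0.11 ± 0.09, Uqcrh 0.18 ± 0.08, Ndufa4 0.18 ± 0.07 and Atp5o -0.02 ± 0.08.

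A further count asked only whether the 3 high-volume libraries all lay on one side of the 3 low-volume ones in TMM-scaled CPM. There 14 members were above in all (8.1% of all genes were) and 3 were below (7.28% of all genes). The 14 were Ndufa6, Ndufb6, Ndufs5, Ndufs6, Uqcrh, Ndufa4, Cox6b2, Cox6c, Cox7a2, Cox8a, Atp5g2, Atp5g3, Atp5h and Atp5j2. Those below were Cyc1, Uqcrc2 and Atp5a1, the last being the F1 alpha subunit. Both lists depend on the scaling. In RPKM, Ndufs5 overlapped, at 176.6 to 226.8 in the high-volume and 146.2 to 179.2 in the low-volume libraries. Sdhb, in neither list, lay fully below in RPKM, at 665 to 761 against 791 to 889. In the 10 and 30 ng libraries alone, 274 of 16564 genes (1.65%) were called, 200 higher and 74 lower at high volume, and 1 of 83 members. That member was Atp5d, the delta subunit of F1. It had 311 and 379 CPM at high volume and 243 and 268 at low volume, a log2 difference of 0.42 ± 0.08 (edgeR adjusted p = 0.0280, 1 residual degree of freedom). At 3 ng it read 375 against 338, and over all 6 libraries the difference was 0.33 ± 0.14 (edgeR adjusted p = 0.745).

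Transcript length moved with the volume difference. Across the 77 members at 20 RPKM or more, Spearman's rho between transcript length and the log2 difference was -0.43, and -0.52 with the length of the coding transcript. Across all 2911 genes of that level it was -0.36. The points share the same 6 libraries and are not independent. For GC content rho was 0.10 in the members and 0.22 in all genes. Of 20 members with a chosen transcript of 1500 bases or more 9 were below 0, and of 57 shorter members 14 were. Over all genes 64.9% of the longer and 38.7% of the shorter ones were below 0. The share of Sdha tags in the exons of its 5′ part was 50.8% at high and 51.5% at low volume, and that of Cyc1 48.6% and 48.1%. Uqcrc2 had 51.5% and 53.8%, and Atp5a1 40.7% and 43.1%. The part of length in the differences of single members was not tested.

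**Figure D5:**
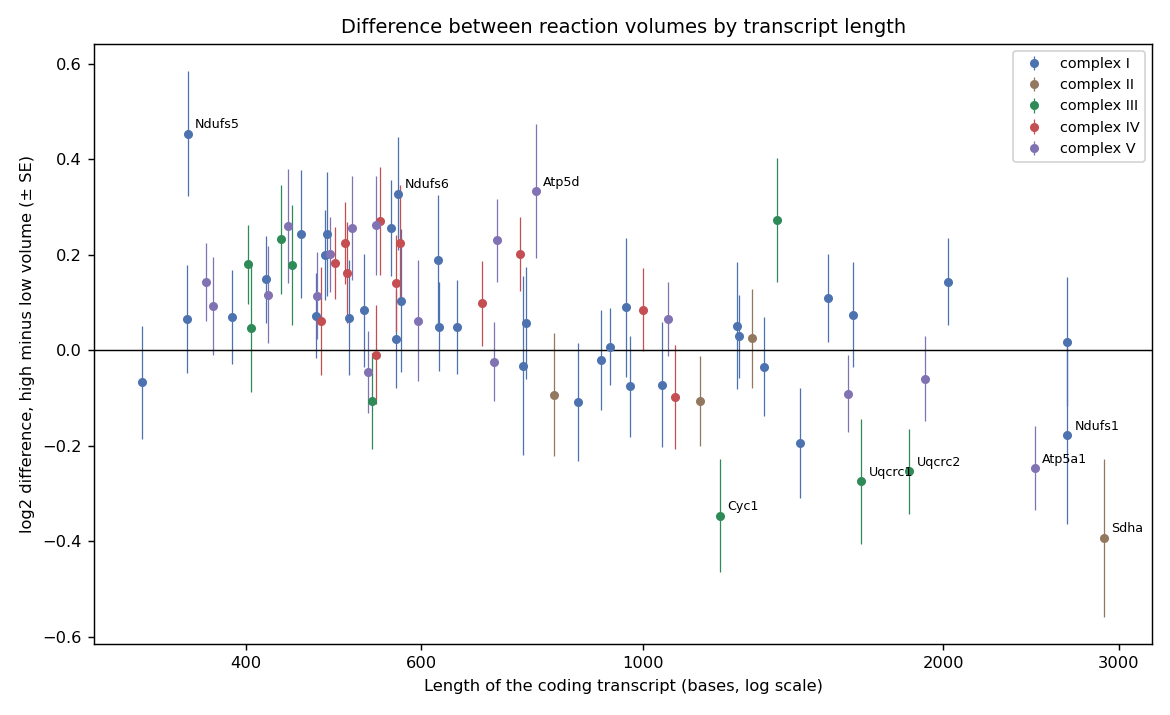
Log2 difference between volumes (high minus low, points with SE from the edgeR fit over 6 libraries) against the length of the coding transcript (bases, log scale) for the 77 members at 20 RPKM or more. Differences tend to fall with length, from short transcripts such as Ndufs5 (0.45) to long ones such as Sdha (-0.39), with a Spearman's rho of -0.52. With the length of the chosen transcript rho was -0.43, and -0.36 across all 2911 genes of that level.

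The input amount, the other factor of the layout, changed no member past the threshold. The edgeR fit called 0 of 16120 genes (0%) and 0 of 83 members for the slope per doubling of RNA, and DESeq2 called 36 genes (0.223%) and 0 members. Unadjusted p under 0.05 held for 3 members (Ndufa1, Sdha and Uqcrfs1), against 7.77% of all genes. Slopes were 0.17 ± 0.06 for Sdha (SE; edgeR adjusted p = 0.625), but 0.068 without the high-volume 3 ng library and 0.012 without the 3 ng pair. They were 0.04 ± 0.04 for Ndufb8 and 0.03 ± 0.03 for Ndufa4. For the other members whose volume difference is given, the slope lay between -0.07 for Ndufs5 and 0.06 for Cox6b2. In a model with the interaction of volume and input, added after the values were seen, edgeR called 0 genes (0%) and 0 members. Unadjusted p under 0.05 held for 0 members and 8.36% of genes there. A difference that misses the threshold in these 6 libraries is not shown to be absent.

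Genes that work with these subunits were read from lists beside them. The 6-library edgeR fit called 0 genes for volume and 0 for input among 12 tested mitochondrial genome genes, 47 assembly factors, 12 electron carriers and partners, and 12 regulators. Unadjusted p under 0.05 for volume held for 4, 2, 1 and 0 of them, and for input for 0, 4, 4 and 1. DESeq2 called 2 of them, mt-Co1 and mt-Co3, both for volume, with edgeR log2 differences of 0.35 ± 0.09 and 0.54 ± 0.11 (SE). The mitochondrial genome's 13 protein genes had a median of 5109 RPKM, led by mt-Co3 (26664), a core subunit of complex IV, and mt-Atp6 (21058), a subunit of the ATP synthase. mt-Nd4l was listed at 0.223 RPKM with 11 tags. Of 48 assembly factors 47 were found in the annotation, with a median of 13.1 RPKM, so they lay far below the subunits they assemble. Uqcc2 (758 RPKM), for complex III, and Coa3 (249 RPKM), for complex IV, stood out as the 2 highest. Of the carriers and partners, the ATP synthase inhibitor Atpif1 stood at 1851 ± 127 RPKM (SD, n = 6), within the range of the most abundant subunits. Ndufab1, the acyl carrier protein that also sits in complex I, stood at 104 RPKM. The regulators had a median of 3.05 RPKM and none reached 10. Hif1a, the oxygen-regulated factor, was highest at 8.56 RPKM, followed by Nrf1, whose motif was searched above, at 6.06 RPKM.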

How the data were processed

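The deposited files give a whole-number tag count and the authors' RPKM for each transcript, exon and intron. The tools named in the submitters' processing notes are TopHat2 2.0.8, Bowtie2 2.1.0 and CASAVA 1.8, with build GRCm38.p1. Which program counted the reads, and how multiply matching reads were treated, is not given in the sources. Transcripts were matched to genes with GENCODE M21 (89664 of 93615 matched), and the transcript with the largest summed tag count stood for its gene.

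Tests on the counts of all genes used edgeR 4.0.16 and R 4.3.3 (TMM scaling, filterByExpr, quasi-likelihood test; volume plus centred log2 input, 3 residual degrees of freedom), with Benjamini-Hochberg adjustment and a threshold of 0.05. DESeq2 1.42.0 was an alternative. On simulated counts for 16120 genes with 200 changed by 1 log2 unit, the volume test recovered 196 with 13 false calls, and the input test 200 with 8. The simulation gave all genes and libraries the same dispersion, with no added spread at 3 ng. It does not measure the power for differences as small as those of the members named here. Paralog pairs were compared on log2(RPKM + 1) by exact permutation tests. Copies were sought with blastn 2.17.0.

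Same-input libraries of the 2 volumes deviated together (correlations 0.132, 0.111 and 0.126 at 3, 10 and 30 ng). Libraries of different input gave -0.132 to 0.103, so the 10 ng pair stood little apart. The labels give the shared input, and every pair was over 0.1, so inputs were taken to pair the libraries. In both volumes, replicate 1 had 10 ng, replicate 2 had 3 ng and replicate 3 had 30 ng. The members and gene lists were chosen with earlier results of these data known. Volume differences and input slopes are given for the highest member of each complex, the 2 highest and 2 lowest in volume difference at a mean of 5 CPM or more, and members past the threshold; Atp5d was added after its values were seen. Other lists are named by their 2 highest genes, those under 0.1 RPKM and, chosen after their values were seen, a few others. Tags carry no molecular identifiers, so depth limits hold for counting error only.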

Additional observations from a re-analysis of the deposited data

How the results depend on the processing

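No member was called for volume or input under any alternative with edgeR or DESeq2, except Atp5d without the 3 ng pair (1 member). The number of genes called for volume, 1 of 16120, became 11 without a filter, 179 with DESeq2, 274 in the 10 and 30 ng libraries, and 0 with a GC offset, with the replicate block and with the block and GC offset together. It was 0 to 2 when 1 library was left out (0 without low-volume replicate 2 and 2 without high-volume replicate 3). The block changed no other call. For input the count of 0 became 2 without a filter, 36 with DESeq2 and 1 in the 10 and 30 ng libraries. All 12 pairs kept their direction under every alternative except Atp5g1 against Atp5g2 with the longest transcript (-2.12), but sizes moved with the pseudocount and transcript, as given beside them. With the longest transcript the median fell to 247 RPKM in complex I, 250 in III and 383 in V. With the coding transcript of highest RPKM it was 416 (I), 130 (II), 385 (IV) and 681 (V), and with members at 1 RPKM or more 488 in complex IV. Against neighbouring exons, Ndufv3 exon 3 stood at 5.00% and Atp5c1 exon 9 at 202%. The causes were not tested.

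Differences near 0 changed sign. For volume, Ndufb8 was -0.051 with total-count scaling and Atp5o 0.013 without the 3 ng pair. With 1 library left out, volume differences ran from -0.0071 to 0.14 for Ndufb8 and from -0.078 to 0.016 for Atp5o, and, with no change of sign, from -0.16 to -0.052 for Sdhb, while Sdha was -0.18 without high-volume replicate 2. For input with the GC offset, Sdhb was -0.0069, Uqcrh -0.049, Ndufa4 -0.034 and Atp5o -0.0024. Uqcrh was -0.0018 with RLE size factors and with DESeq2. In the 10 and 30 ng libraries, Cyc1 was 0.094, Ndufs5 0.076 and Cox6b2 -0.077. With 1 library left out, slopes ran from -0.013 to 0.029 for Sdhb, -0.0056 to 0.029 for Uqcrh, -0.00092 to 0.043 for Atp5o, -0.059 to 0.040 for Cyc1 and -0.036 to 0.12 for Cox6b2. A fit without 1 library leaves 2 residual degrees of freedom, and depth limits Cox7b2, Cox8b and Cox8c, with 28, 16 and 0 tags.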
